A study of Mus musculus with 12 samples.

Results

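The 10 genes described here are Rab27a, Mlph, Myo5a, Rab32, Rab38, Hps4, Slc24a5, Gpr143, Trpm1 and Gpnmb, which encode proteins of melanosome formation and transport. They were chosen by name from the gene symbols of the count tables. All 10 were found among the 24421 symbols, and all 10 were among the 11638 genes that passed the filter on low values, at least 1 CPM (the count scaled to a common library size) in at least 3 of the 12 libraries. Expression was measured by RNA-seq in B16F10 cells, a pigmented mouse melanoma line, so each group is a treatment of 1 line in culture. The control group received the vehicle dimethyl sulfoxide (DMSO). The DAC group received 25 nM 5-aza-2′-deoxycytidine, a cytidine analog that enters DNA and traps DNA methyltransferases, for 72 h. The SFN group was left without drug on the first day and then received sulforaphane, an isothiocyanate of cruciferous vegetables, for 48 h. The DAC+SFN group received 25 nM DAC for 72 h with 5 µM SFN over the last 48 h. The labels give the SFN dose as 5 nM for the single treatment and 5 µM for the combination, whereas the methods of the study give 5 µM for both, so the dose of the SFN group is uncertain. SFN was dissolved in water, so the DMSO vehicle is that of DAC. Each group had 3 independent biological repeats, numbered 1 to 3, and all cells were harvested at 72 h.

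Melanosomes are lysosome-related organelles in which melanocytes make and store melanin. Their precursors receive pigment enzymes, channels and transporters from endosomes by way of adaptor and BLOC complexes, with Rab32 and Rab38 as the GTPases of that route and the BLOC-3 subunit Hps4 as part of the factor that activates them. Mature melanosomes carry Rab27a, which binds melanophilin (Mlph), which in turn holds the actin motor myosin Va (Myo5a), and loss of any member of this complex in mice gives a diluted coat colour because melanosomes gather around the nucleus.

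RefSeq promoter windows, from 250 bases before to 50 bases after an annotated start (GRCm38.p6), were at hand for 8 of the 10 genes, as 10 windows in all, since Rab27a and Trpm1 had more than 1 start. They were searched on both strands for CATGTG and CACGTG, the forms of the E-box that the melanocyte factor MITF is known to bind, and for TGACNNNGC, the core of the antioxidant response element. The E-box forms cannot match the same 6 bases, and no match to TGACNNNGC overlapped an E-box match in these windows. CATGTG was present in 3 of the 10 windows, against 14.2% of all 32851 windows of the same 300 bases. CACGTG was present in 3, against 7.15%, and TGACNNNGC in 2, against 12.4%. The stretches before the start of Mlph (chr1:90914940-90915084), Slc24a5 (chr2:125067967-125068123) and Trpm1 (chr7:64153675-64153834) are printed because Mlph rose and the others fell after SFN and each holds an E-box within 160 bases of its start. All 3 are on the plus strand, 5′ to 3′, with the E-box in capitals, and CACATG is CATGTG read on the other strand.
Mlph: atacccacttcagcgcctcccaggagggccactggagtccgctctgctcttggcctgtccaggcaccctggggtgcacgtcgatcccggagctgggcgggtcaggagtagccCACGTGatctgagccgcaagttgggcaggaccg
Slc24a5: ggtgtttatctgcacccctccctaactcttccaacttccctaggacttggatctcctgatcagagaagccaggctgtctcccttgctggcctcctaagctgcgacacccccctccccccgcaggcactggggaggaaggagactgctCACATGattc
Trpm1: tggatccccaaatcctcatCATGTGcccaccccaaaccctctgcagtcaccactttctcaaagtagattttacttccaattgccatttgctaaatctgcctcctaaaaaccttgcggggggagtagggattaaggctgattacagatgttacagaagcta
The E-box begins 48 bases before the start in Mlph, 13 bases before it in Slc24a5 and 141 bases before it in Trpm1. The other windows with an E-box were the second window of Trpm1, with CACGTG 229 bases before the start and CACATG 37 bases after it, and the second window of Rab27a, with CACGTG 246 bases before the start. TGACNNNGC was found before the start of Hps4, at 17 bases, and in the second window of Trpm1, at 22 bases. These matches are letters in a sequence, and no binding was measured here.

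Total counts per library ranged from 15880957 to 27291436, and the 10 genes together took 0.897% to 1.25% of them. Gpnmb alone took 0.630% to 0.988% and stood between the highest and the 6th highest count of all genes in every library. Between genes, levels were compared per length, as RPKM, which is the CPM divided by the merged exon length in kilobases. In control cells the order was Gpnmb at 1110 ± 198 RPKM, Slc24a5 at 337 ± 45.9, Rab38 at 265 ± 26.7, Mlph at 94.6 ± 10.7, Rab27a at 70.6 ± 11.6 and Myo5a at 44.6 ± 5.19 (SD, n = 3). Gpr143 at 27.5 ± 5.17, Rab32 at 21.1 ± 2.04, Trpm1 at 8.54 ± 3.49 and Hps4 at 7.33 ± 0.680 followed. The ranges of Gpr143 and Rab32 overlapped, as did those of Trpm1 and Hps4, whereas the other neighbours in this order did not overlap. The level of Trpm1 is divided by 14746 bases of merged exon from 23 annotated transcripts, which may be longer than the transcript the cells make. The Rab27a paralog Rab27b was not tested, with 3 counts or fewer in each library.

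**Figure D1:**
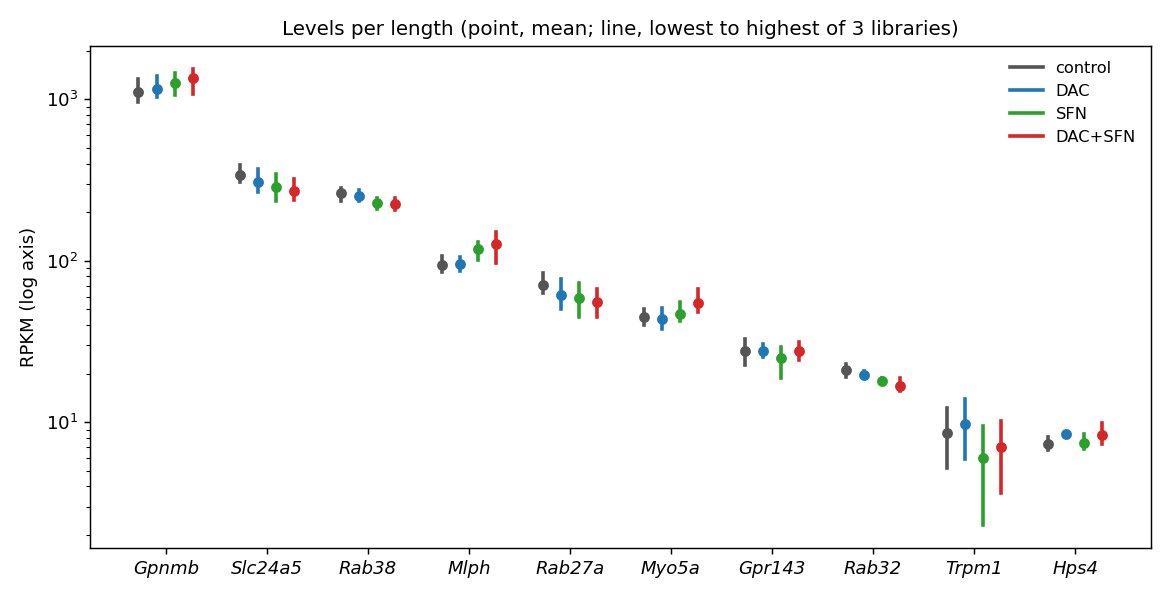
Level per length of the 10 genes (RPKM, log axis) in control, DAC, SFN and DAC+SFN cells, with points for the mean and lines from the lowest to the highest of 3 libraries. Gpnmb is at 1110 RPKM in control cells and Hps4 at 7.33, and the order of the first 8 genes is that of the control in each group.

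Differences between groups were tested with edgeR's quasi-likelihood test on the counts of all 12 libraries, with the replicate number as a block and Benjamini-Hochberg adjustment over the 11638 genes. A gene is said here to rise or fall where the adjusted p was under 0.05. After SFN, Rab27a, Rab32, Rab38, Slc24a5 and Trpm1 fell and Mlph rose, so that 6 of the 10 genes passed the test, beside 13.9% of all genes tested (8.27% higher and 5.65% lower). After DAC+SFN, Rab27a, Rab32, Rab38 and Slc24a5 fell and Mlph, Myo5a and Gpnmb rose, so that 7 of the 10 passed, beside 31.6% of all genes (17% higher and 14.7% lower). The median log2 fold change of the 10 genes was -0.18 after SFN and -0.12 after DAC+SFN, where that of all genes was 0.00 and 0.01. None of the 10 changed more than 2-fold, a size that 1.28% of all genes passed after SFN and 2.66% after DAC+SFN. At an unadjusted p under 0.05 were 7 of the 10 after SFN, beside 28.8% of all genes, and 9 after DAC+SFN, beside 42.4%. Both comparisons use the same control libraries. Without the replicate block in the same test, none of the 10 passed after SFN, with 2 at an unadjusted p under 0.05, beside 0.198% of all genes called, and 1 of the 10, Rab32, passed after DAC+SFN, beside 10.3%. In bulk RNA, fewer cells that express a gene and less of its RNA in each cell cannot be told apart.

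**Figure D2:**
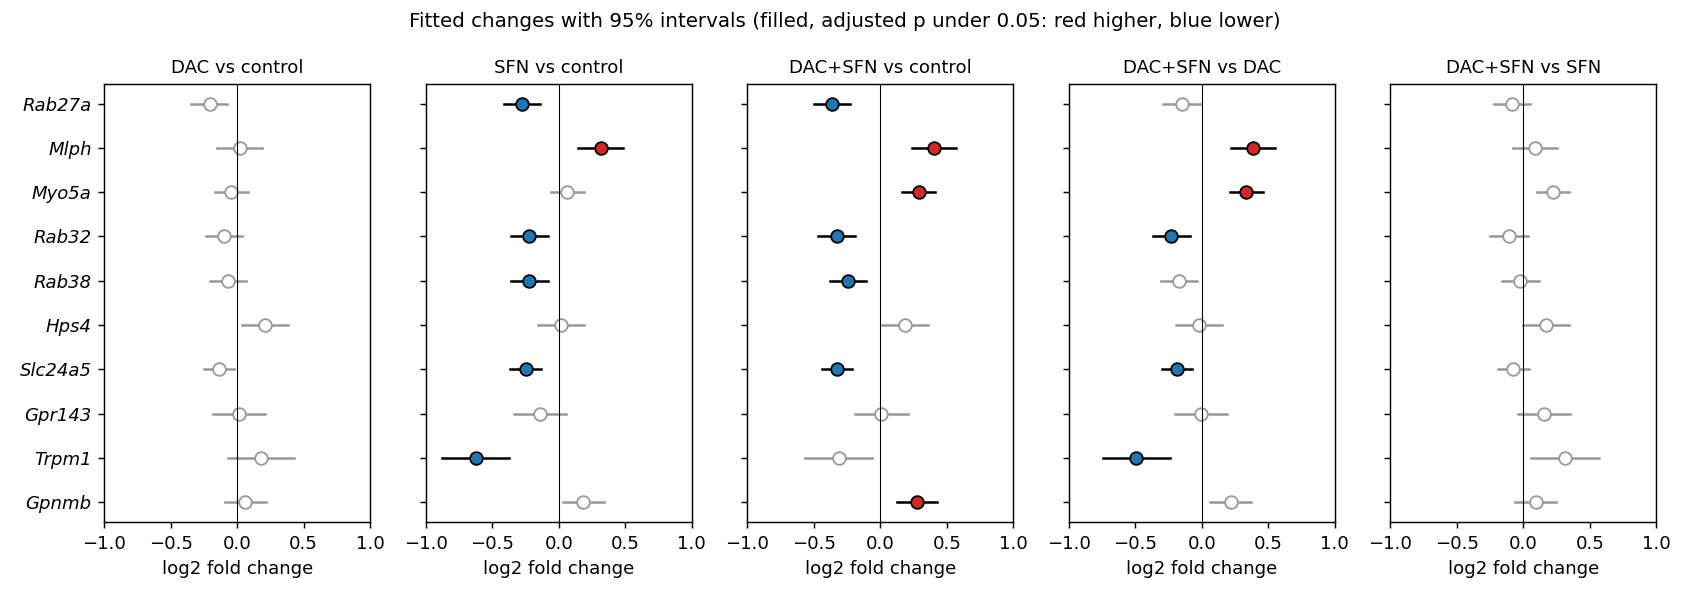
Log2 fold change of each of the 10 genes with its 95% interval in 5 comparisons, with filled points for genes that passed the test at an adjusted p under 0.05 (red higher, blue lower). Mlph is to the right in the comparisons of SFN and of DAC+SFN with control, at 0.31 and 0.40, and Rab27a to the left, at -0.28 and -0.36, while no point is filled for DAC against control or for DAC+SFN against SFN.

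Within the transport complex, Rab27a fell after SFN and after DAC+SFN while its effector Mlph rose after both and the motor Myo5a rose after DAC+SFN. Rab27a (Entrez 11891, chr9:73044854-73097629 of mm10, plus strand) stood at 326, 244 and 252 CPM in control replicates 1, 2 and 3, at 297, 196 and 225 in DAC, at 284, 174 and 229 in SFN and at 258, 173 and 214 in DAC+SFN. The groups overlapped, but in each replicate number the SFN and DAC+SFN libraries were below the control. The log2 fold change of Rab27a was -0.28 (SE 0.063, adjusted p = 0.00954) after SFN and -0.36 (SE 0.064, adjusted p = 0.000741) after DAC+SFN, or 1.28-fold lower with the combination. Leaving out control replicate 2 (-0.20, adjusted p = 0.0791) or SFN replicate 2 (-0.22, adjusted p = 0.0959) ended the SFN call, and no single library ended that of DAC+SFN. A processed pseudogene, Gm27186, shares 149 bases with the exons of Rab27a, 3.84% of their length, and only uniquely aligned reads were counted.

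Mlph (Entrez 171531, chr1:90915085-90951142, plus strand), the linker between Rab27a and the motor, stood at 494, 569 and 458 CPM in control cells, at 513, 567 and 460 in DAC, at 663, 695 and 540 in SFN and at 803, 704 and 522 in DAC+SFN. Replicate 3 was the lowest library of every group, and the rise over control was seen in all 3 replicate numbers with SFN and with DAC+SFN. Its log2 fold change was 0.31 (SE 0.078, adjusted p = 0.0152) after SFN and 0.40 (SE 0.079, adjusted p = 0.00147) after DAC+SFN, the largest rise among the 10 genes. The difference of DAC+SFN from control was 0.70 in replicate 1, 0.31 in replicate 2 and 0.19 in replicate 3 on the log2 scale. The SFN call was lost without control replicate 1 (0.24, adjusted p = 0.116), SFN replicate 1 (adjusted p = 0.0564), SFN replicate 2 (adjusted p = 0.0690) or SFN replicate 3 (adjusted p = 0.0548), whereas the DAC+SFN call held without any 1 library.

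Myo5a (Entrez 17918, chr9:75071015-75223688, plus strand), the processive actin motor, stood at 743, 648 and 591 CPM in control cells, at 758, 609 and 562 in DAC, at 822, 627 and 635 in SFN and at 983, 709 and 746 in DAC+SFN. Replicate 1 was the highest library in every group, and DAC+SFN was above control in all 3 replicate numbers although the groups overlapped. The log2 fold change was 0.07 (SE 0.058, adjusted p = 0.486) after SFN and 0.29 (SE 0.058, adjusted p = 0.00176) after DAC+SFN. Against DAC alone, DAC+SFN was higher by 0.33 (SE 0.058, adjusted p = 0.00170), and against SFN alone the difference of 0.22 had an adjusted p of 0.0640. The interaction term of Myo5a, 0.27 (SE 0.082), had an adjusted p of 0.847.

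**Figure D3:**
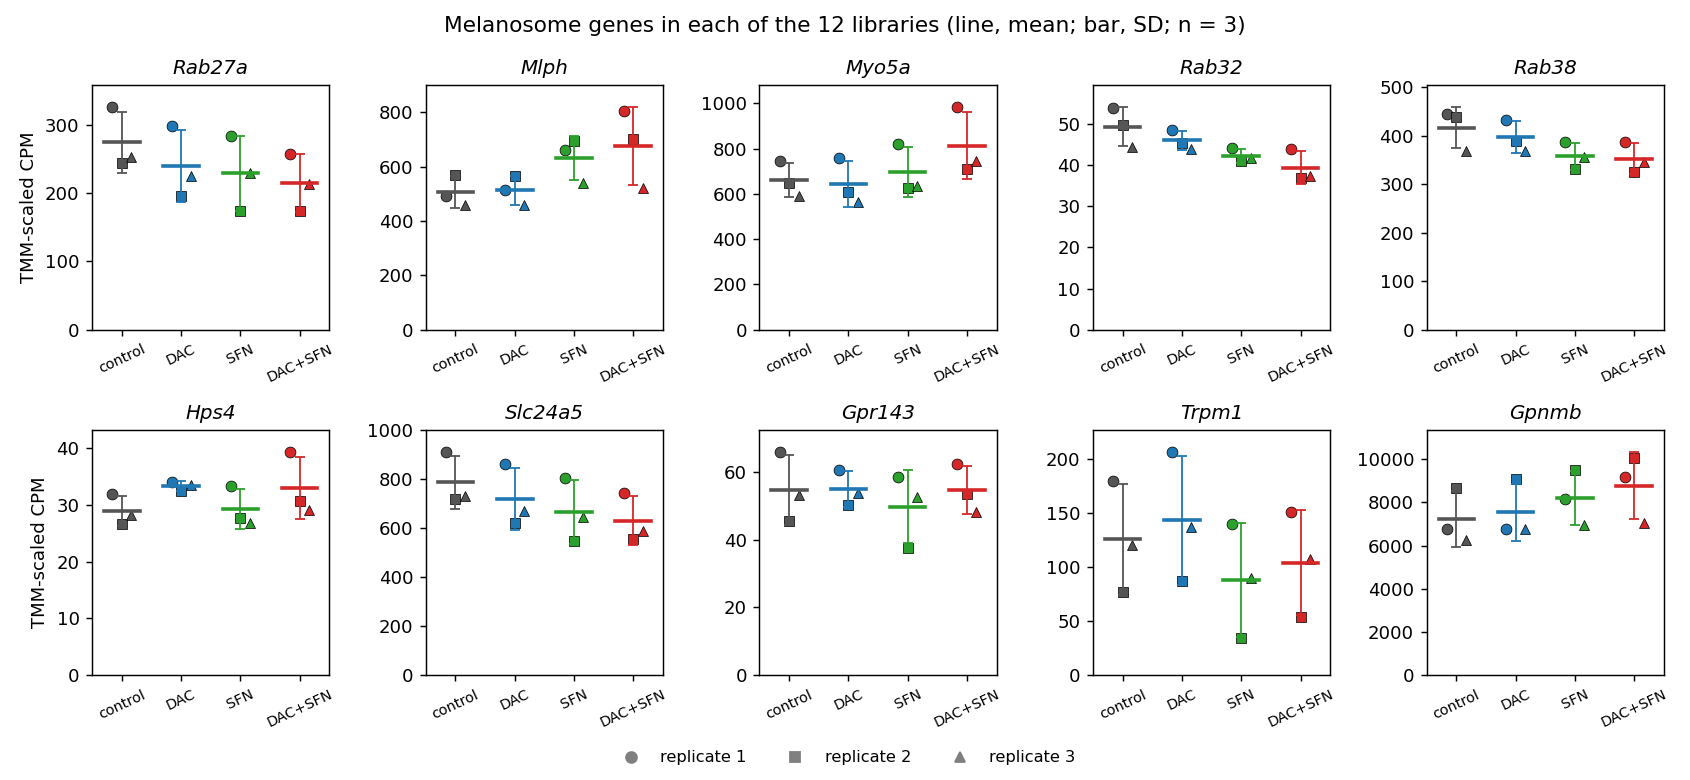
CPM of the 10 genes in each of the 12 libraries (y axis from 0, one panel a gene), with symbols for the replicate number, a line for the group mean and a bar for the SD (n = 3). Mlph lies at 458 to 569 CPM in control cells and at 522 to 803 in DAC+SFN cells, and replicate 2 of Trpm1, drawn as squares, is the lowest library of every group.

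The ratio of Mlph to Rab27a within a library, taken per length, was 1.1, 1.69 and 1.31 in control replicates 1, 2 and 3, 1.25, 2.1 and 1.48 in DAC, 1.69, 2.90 and 1.71 in SFN and 2.26, 2.95 and 1.77 in DAC+SFN. The lowest SFN library was just above the highest control library, and within each replicate number the ratio was higher after SFN and DAC+SFN than in the control. The ratio of Myo5a to Rab27a was 0.598, 0.696 and 0.613 in control cells, 0.759, 0.946 and 0.727 in SFN and 1.00, 1.07 and 0.916 in DAC+SFN. The exact two-sided permutation test cannot go below p = 0.1 with 3 against 3 libraries, so it could not pass the threshold here. It gave that value for both ratios with SFN and with DAC+SFN against control, or 0.3 after adjustment over the 12 ratio tests made, without use of the replicate numbers. The ratios restate the levels of the genes given above and are a description. The ratio of Mlph to Myo5a was 2.13 ± 0.295 in control cells. It was 2.55 ± 0.451 in SFN cells, above control in all 3 replicate numbers (exact permutation p = 0.3), and 2.31 ± 0.407 in DAC+SFN cells (exact permutation p = 0.6). These ratios are of RNA, and the proteins were not measured in these data.

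**Figure D4:**
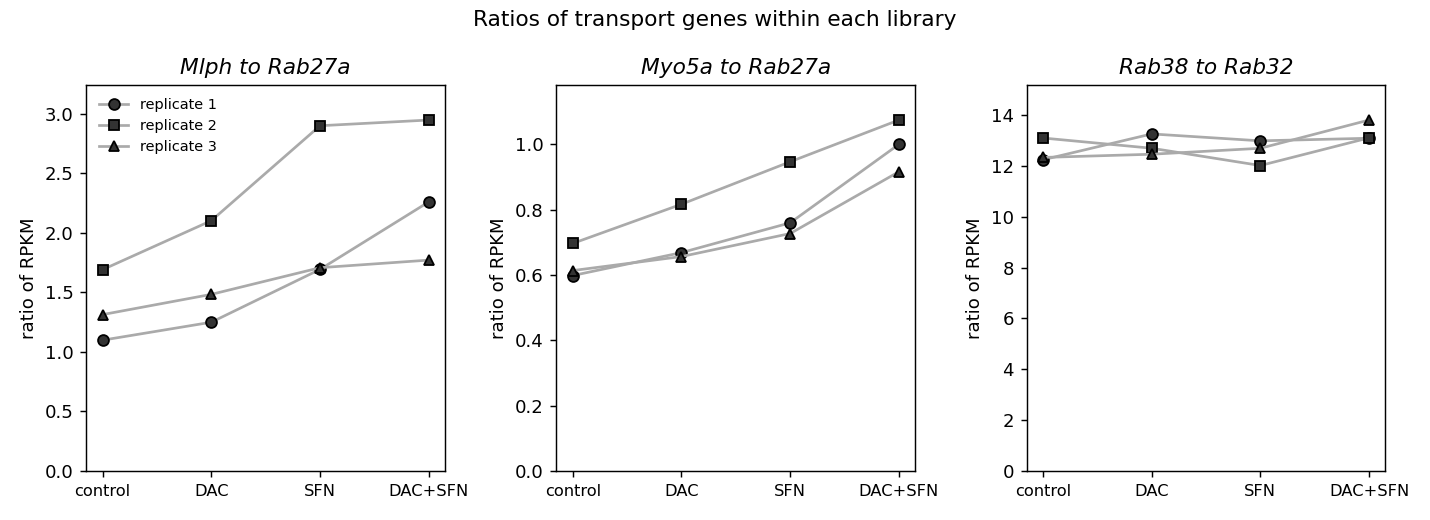
Ratio of levels per length (RPKM) of Mlph to Rab27a, Myo5a to Rab27a and Rab38 to Rab32 within each library, y axis from 0, with a line joining the libraries of a replicate number over the 4 groups. Both ratios to Rab27a are highest in DAC+SFN for each replicate number, up to 2.95 and 1.07, while Rab38 to Rab32 is 12.6 on average in control and 13.3 in DAC+SFN cells.

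The paired GTPases of cargo delivery fell together. Rab32 (Entrez 67844, chr10:10545002-10558265, minus strand) stood at 53.8, 49.6 and 44.3 CPM in control cells, at 48.5, 45.4 and 43.9 in DAC, at 44.1, 40.9 and 41.6 in SFN and at 43.9, 36.7 and 37.2 in DAC+SFN. Every SFN and every DAC+SFN library was below every control library, the 1 gene of the 10 for which this held in each of these comparisons, and 20.8% and 29.4% of all genes tested had groups that did not overlap there. The log2 fold change of Rab32 was -0.22 (SE 0.065, adjusted p = 0.0344) after SFN and -0.33 (SE 0.066, adjusted p = 0.00179) after DAC+SFN. The SFN call was lost without any 1 of 5 of the 6 libraries compared, all but control replicate 3, with adjusted p from 0.0542 to 0.175, whereas no single library ended that of DAC+SFN.

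Rab38 (Entrez 72433, chr7:88430273-88491572, plus strand), whose function overlaps with that of Rab32 in melanocytes, stood at 444, 439 and 369 CPM in control cells, at 434, 389 and 369 in DAC, at 387, 331 and 356 in SFN and at 387, 325 and 346 in DAC+SFN. Replicates 1 and 2 were lower after SFN and DAC+SFN than any of replicates 1 and 2 of the control, while replicate 3 moved less. Its log2 fold change was -0.22 (SE 0.064, adjusted p = 0.0323) after SFN and -0.24 (SE 0.064, adjusted p = 0.0103) after DAC+SFN. The SFN call was lost without control replicate 1 (adjusted p = 0.0803), control replicate 2 (-0.14, adjusted p = 0.224), SFN replicate 1 (adjusted p = 0.113) or SFN replicate 2 (adjusted p = 0.200). That of DAC+SFN was lost without control replicate 2 (-0.16, adjusted p = 0.0880) or DAC+SFN replicate 2 (-0.20, adjusted p = 0.0591). The ratio of Rab38 to Rab32 per length was 12.6 ± 0.470 in control and 13.3 ± 0.409 in DAC+SFN cells (exact permutation p = 0.2).

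Hps4 (Entrez 192232, chr5:112343083-112378414, plus strand) passed the test in none of the comparisons. It stood at 31.9, 26.7 and 28.2 CPM in control cells, at 34.0, 32.4 and 33.6 in DAC, at 33.4, 27.7 and 26.8 in SFN and at 39.3, 30.7 and 29.1 in DAC+SFN. The 3 DAC libraries were above the 3 control libraries, as 8.43% of all genes did not overlap between these groups, and the log2 fold change was 0.21 (SE 0.082, 95% interval 0.04 to 0.38, adjusted p = 0.395). After DAC+SFN it was 0.19 (adjusted p = 0.0962), which became 0.24 (adjusted p = 0.0417) without DAC+SFN replicate 3. Hps1, the other subunit of BLOC-3, had a log2 fold change of 0.03 (adjusted p = 0.905) after SFN and 0.00 (adjusted p = 0.999) after DAC+SFN.

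Among the membrane proteins of the melanosome, Slc24a5 and Trpm1 fell after SFN, Gpnmb rose after DAC+SFN and Gpr143 passed no test. Slc24a5 (Entrez 317750, chr2:125068124-125088677, plus strand), a cation exchanger needed for normal pigmentation, stood at 909, 718 and 731 CPM in control cells, at 861, 621 and 671 in DAC, at 805, 547 and 645 in SFN and at 744, 555 and 589 in DAC+SFN. Replicate 1 was the highest and replicate 2 the lowest library of every group, and each treated library was below the control of its number. Its log2 fold change was -0.25 (SE 0.054, adjusted p = 0.00681) after SFN and -0.32 (SE 0.054, adjusted p = 0.000481) after DAC+SFN, and the SFN call was lost without control replicate 2 (-0.20, adjusted p = 0.0539) or SFN replicate 2 (-0.20, adjusted p = 0.0728). Slc24a5 shares 921 bases, 39.5% of its exon length, with the antisense gene Myef2, and the strand setting of the counting is not given in the sources used here. Myef2 was at 132 ± 5.52 CPM in control cells and at 114 ± 9.95 in DAC+SFN cells, with a log2 fold change of -0.05 (adjusted p = 0.592) after SFN and -0.22 (adjusted p = 0.00720) after DAC+SFN. The part of Myef2 reads in the count of Slc24a5 was not tested.

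Trpm1 (Entrez 17364, chr7:64153835-64269775, plus strand), a cation channel gene that hosts the microRNA gene Mir211 in an intron, had the widest spread of the 10 genes. It stood at 180, 77.2 and 121 CPM in control cells, at 207, 87.0 and 137 in DAC, at 140, 34.1 and 89.7 in SFN and at 151, 53.9 and 107 in DAC+SFN. Within each replicate number the order was DAC, control, DAC+SFN and SFN from high to low, while the groups overlapped. The log2 fold change was -0.63 (SE 0.12, adjusted p = 0.00282) after SFN, 1.54-fold lower, the largest fall among the 10 genes, and the call held without any 1 library. The fall was -0.36 in replicate 1, -1.18 in replicate 2 and -0.43 in replicate 3. After DAC+SFN it was -0.31 (SE 0.12, adjusted p = 0.0563), and leaving out SFN replicate 2, which is not in that comparison but in the shared estimate of the spread, gave -0.31 with an adjusted p of 0.00480. That call was likewise gained without control replicate 3, DAC replicate 2, DAC replicate 3, SFN replicate 1 or DAC+SFN replicate 3, with adjusted p from 0.0396 to 0.0496, and in a fit of only the 2 groups compared (-0.32, adjusted p = 0.0127). DAC+SFN was lower than DAC alone by a log2 difference of -0.49 (SE 0.12, adjusted p = 0.0122), a call lost without DAC replicate 2 (-0.39, adjusted p = 0.0750) or DAC+SFN replicate 1 (-0.47, adjusted p = 0.0647).

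Gpnmb (Entrez 93695, chr6:49036546-49070929, plus strand), a glycoprotein of melanosomes related to the fibril protein Pmel, stood at 6747, 8693 and 6249 CPM in control cells, at 6782, 9086 and 6746 in DAC, at 8143, 9513 and 6969 in SFN and at 9200, 10064 and 7039 in DAC+SFN. Replicate 2 was the highest and replicate 3 the lowest library of each group. Its log2 fold change was 0.19 (SE 0.071, adjusted p = 0.0976) after SFN and 0.28 (SE 0.071, adjusted p = 0.00842) after DAC+SFN, a call lost without control replicate 1 (0.24, adjusted p = 0.0645) or DAC+SFN replicate 1 (0.20, adjusted p = 0.0624), and in a fit of only the 2 groups compared (0.27, adjusted p = 0.0859). Gpr143 (Entrez 18241, chrX:152781921-152808646, plus strand), a G protein-coupled receptor of the melanosome membrane, stood at 65.8, 45.4 and 53.1 CPM in control, at 60.7, 50.3 and 53.9 in DAC, at 58.6, 37.7 and 52.7 in SFN and at 62.4, 53.5 and 48.2 in DAC+SFN. The SFN libraries were below the control in each replicate number, with a log2 fold change of -0.14 (95% interval -0.34 to 0.05, adjusted p = 0.325). After DAC+SFN the log2 fold change was 0.01 (95% interval -0.19 to 0.21, adjusted p = 0.954).

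After DAC alone, none of the 10 genes passed edgeR's test or DESeq2's, beside 0.18% of all genes called by edgeR and 0.713% by DESeq2. In edgeR's test 3 were at an unadjusted p under 0.05, beside 10.1% of all genes. The 3 were Rab27a at -0.21 (adjusted p = 0.234), Hps4 at 0.21 (adjusted p = 0.395) and Slc24a5 at -0.14 (adjusted p = 0.399), each with the same sign in all 3 replicate numbers. In a fit of only the DAC and control libraries, 663 genes passed in place of 21, among them Rab27a (-0.20, adjusted p = 0.00640), Slc24a5 (-0.13, adjusted p = 0.0445) and Trpm1 (0.19, adjusted p = 0.0115). When DAC+SFN was compared with DAC, 5 of the 10 genes passed, beside 16.1% of all genes (9.55% higher and 6.6% lower), none of them past 2-fold, beside 0.928%, and 8 were at an unadjusted p under 0.05, beside 30.5%. Mlph, at 0.39 (SE 0.079, adjusted p = 0.00471), and Myo5a were higher, and Rab32, at -0.23 (SE 0.066, adjusted p = 0.0295), Slc24a5, at -0.19 (SE 0.054, adjusted p = 0.0295), and Trpm1 were lower. The calls of Mlph and Myo5a held without any 1 library, with Mlph from 0.25 to 0.47 (adjusted p up to 0.0402). Without replicate 1 in all groups both were lost (Mlph 0.25, adjusted p = 0.0981, and Myo5a 0.31, adjusted p = 0.0700). Rab32 lost this call without any 1 of 5 of the 6 libraries, all but DAC+SFN replicate 3 (adjusted p from 0.0517 to 0.106). Slc24a5 lost it without DAC replicate 1, 2 or 3 or DAC+SFN replicate 1 (adjusted p from 0.0556 to 0.109). Rab32 and Slc24a5 also lost it in a fit of only the groups compared (-0.24, adjusted p = 0.161, and -0.19, adjusted p = 0.173). Rab38, at -0.17 (adjusted p = 0.0835), passed without control replicate 2 (adjusted p = 0.0459) or DAC+SFN replicate 3 (adjusted p = 0.0416). Gpnmb, at 0.22 (adjusted p = 0.0514), passed without control replicate 2 (adjusted p = 0.0463), DAC replicate 3 (adjusted p = 0.0461) or DAC+SFN replicate 3 (adjusted p = 0.0234). DESeq2 called 6 of the 10 in this comparison, with Gpnmb gained (0.21, adjusted p = 0.0137), beside 15.5% of all genes. When DAC+SFN was compared with SFN, none of the 10 passed, beside 1.61% of all genes (0.937% higher and 0.67% lower, 0.112% past 2-fold), and 2 were at an unadjusted p under 0.05, beside 17.8%. DESeq2 called 1 of the 10 there, Myo5a (0.22, adjusted p = 0.0152), beside 3.47% of all genes. The interaction of DAC and SFN was called for none of the 10 and for 0% of all genes, with 1 of the 10, Myo5a, at an unadjusted p under 0.05, beside 5.87%, and DESeq2 called none.

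The replicate number went with differences wider than the change after DAC+SFN for 7 of the 10 genes. They were narrower for Rab32, Rab38 and Mlph, as log2 ranges of 0.19, 0.20 and 0.35 beside changes of -0.33, -0.24 and 0.40. The range spans all 3 replicate numbers, whereas the change is a single contrast. Of the 7 genes, Gpr143, Trpm1 and Hps4 were not called after DAC+SFN. The share of all genes with the wider range was not computed. All 10 genes differed between replicate numbers, beside 33.9% of all genes tested, with adjusted p from 1.01e-06 for Trpm1 to 0.0392 for Rab32. Averaged over the 4 groups, Trpm1 stood at 169 CPM in replicate 1, 63.1 in replicate 2 and 114 in replicate 3, a 2.82-fold range. Rab27a, Slc24a5 and Trpm1 were lowest in replicate 2 of all 4 groups, and Gpnmb was highest there in all 4. For Rab27a the range was 1.49-fold, wider than its 1.28-fold difference between DAC+SFN and control, and Rab32 had the narrowest range of the 10, 1.14-fold. The library numbers in the labels run with the replicate numbers, so an effect of the culture and one of the library preparation cannot be told apart. With replicate 1, 2 or 3 left out of all 4 groups, 1, 1 and 6 of the 10 genes passed after SFN, beside 5.4%, 3.72% and 15.7% of all genes tested. After DAC+SFN 4, 5 and 8 passed, beside 12.7%, 15.3% and 35.2%. Trpm1 was the gene that passed after SFN without replicate 1 (-0.78, adjusted p = 0.0211) and without replicate 2 (-0.40, adjusted p = 0.0135).

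Other genes of the pathway were taken in 4 lists, and no gene of any list passed the test after DAC alone. Of all genes tested, 13.9% were called after SFN and 31.6% after DAC+SFN. These shares were 7.69% and 15.4% for BLOC and AP complexes and partners, and 12.5% and 20.8% for motors, tethers and fusion. They were 21.4% and 57.1% for fibrils, channels and transporters, and 9.09% and 36.4% for pigment enzymes and regulators. Of 26 genes of the BLOC and AP complexes, which sort cargo to melanosomes, and of their partners, 1 rose and 1 fell after SFN, and 3 rose and 1 fell after DAC+SFN, with a median log2 fold change of 0.01 and -0.02. Bloc1s2, a subunit of BLOC-1, rose by 0.24 after SFN (adjusted p = 0.0248) and 0.27 after DAC+SFN (adjusted p = 0.00703), and Lyst, a regulator of lysosome size that is a subunit of neither kind of complex, fell by 0.32 after SFN (adjusted p = 0.0110). Dysbindin (Dtnbp1), another BLOC-1 subunit, stood at 111, 117 and 106 CPM in control and at 92.0, 90.5 and 80.0 in DAC+SFN cells, all below the control. Here its log2 fold change was -0.35 (SE 0.063, adjusted p = 0.000874), and 29.4% of all genes tested did not overlap between these groups. Of 24 tested genes of motors, tethers and membrane fusion, out of 29, none rose and 3 fell after SFN, and 3 rose and 2 fell after DAC+SFN, with a median of -0.02 and 0.01. Among them Sytl2, a Rab27a effector, fell by 0.56 (adjusted p = 0.000179) after SFN and 0.32 (adjusted p = 0.00457) after DAC+SFN. Sytl2 stood at 243, 172 and 177 CPM in control and at 164, 108 and 129 in SFN cells. These groups did not overlap, as was so for 20.8% of all genes tested. Rab9, a GTPase of the late endosome, fell by 0.31 (adjusted p = 0.0314) after SFN and 0.40 (adjusted p = 0.00429) after DAC+SFN, and Stx3, a fusion protein, rose by 0.49 (adjusted p = 0.0140) after DAC+SFN.

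Of 14 genes of melanosome fibrils, channels and transporters, 2 rose and 1 fell after SFN, and 6 rose and 2 fell after DAC+SFN, with a median of 0.01 and 0.10. Slc7a11, the cystine transporter of the plasma membrane, was the only gene of the 4 lists called with more than a 2-fold change after SFN or DAC+SFN. It stood at 103, 79.6 and 87.5 CPM in control, at 176, 244 and 145 in SFN and at 235, 258 and 186 in DAC+SFN cells, and rose by 1.06 (SE 0.16, adjusted p = 0.000531) after SFN and 1.32 (SE 0.16, adjusted p = 3.84e-05) after DAC+SFN. Bace2, a protease that processes Pmel, stood at 319, 194 and 251 CPM in control and at 195, 106 and 151 in DAC+SFN cells, and fell by 0.60 (SE 0.069, adjusted p = 6.77e-05) after SFN and 0.77 (SE 0.070, adjusted p = 3.73e-06) after DAC+SFN. Pmel, the fibril protein, was at -0.28 (adjusted p = 0.0785) after SFN and fell by 0.36 (adjusted p = 0.0129) after DAC+SFN. Of 11 tested pigment enzymes and regulators, out of 14, 1 fell after SFN, and 1 rose and 3 fell after DAC+SFN, with a median of -0.01 and -0.12. Pax3, a transcription factor of the lineage, fell by 0.20 (adjusted p = 0.0212) and 0.26 (adjusted p = 0.00181), and Tfeb, a regulator of lysosomal genes, fell by 0.39 after DAC+SFN (adjusted p = 0.0195). Mitf, the main regulator of pigment genes, had a log2 fold change of -0.01 (adjusted p = 0.900) after SFN and -0.08 (adjusted p = 0.286) after DAC+SFN. Sox10 was at 0.04 and 0.07 (adjusted p = 0.786 and 0.546), and the pigment enzyme tyrosinase (Tyr) at 0.07 and 0.09 (adjusted p = 0.349 and 0.167).

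**Figure D5:**
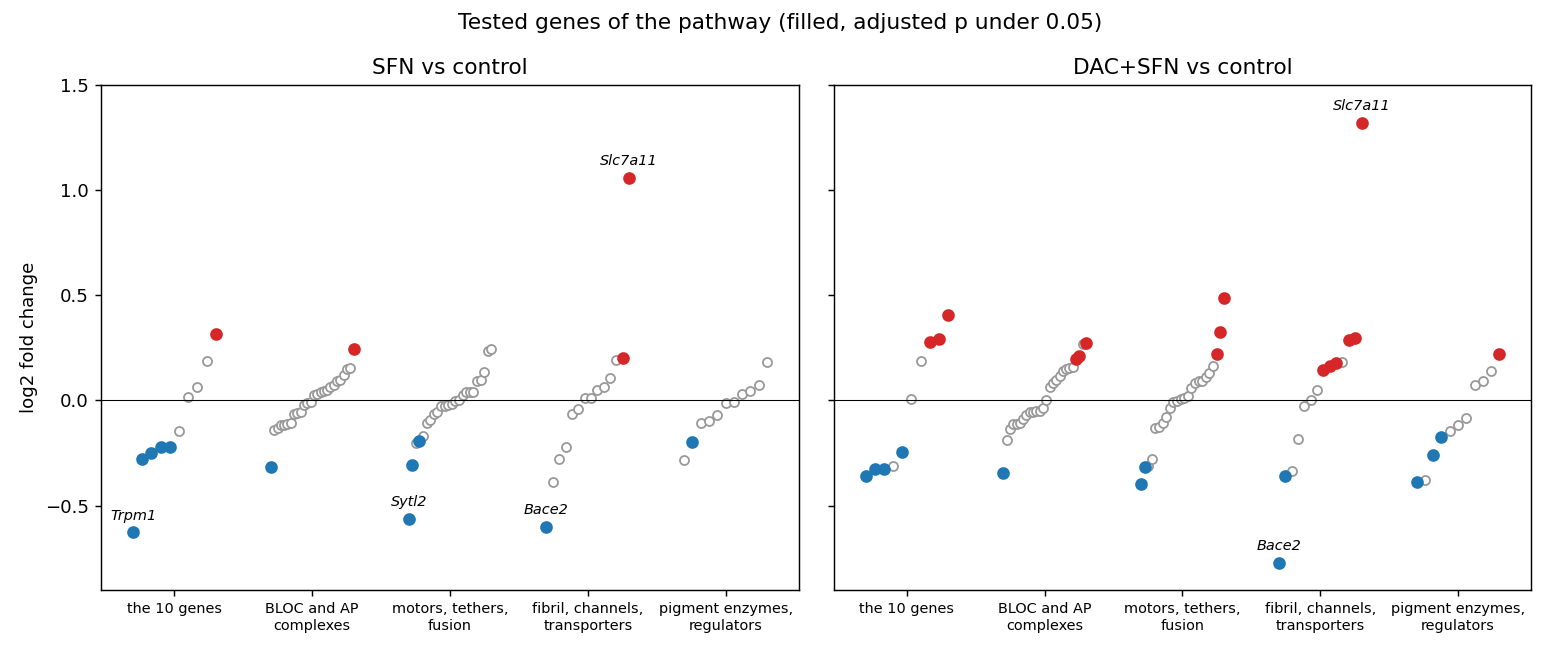
Log2 fold change of each tested gene of the 10 described here and of the 4 pathway lists, after SFN (left) and after DAC+SFN (right), ordered by size within a list, with filled points for an adjusted p under 0.05 (red higher, blue lower). Slc7a11, at 1.06 and 1.32, lies apart from the other genes, and Trpm1, Sytl2 and Bace2 lie lowest after SFN at -0.63, -0.56 and -0.60.

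All 9 markers of the melanocyte lineage were tested, and their summed level was 21871 to 30647 CPM per library. Of the 9, 1 was called after SFN and 4 after DAC+SFN, beside 13.9% and 31.6% of all genes tested. The same shares stand beside the counts of the other marker lists. Of 5 macrophage markers, Adgre1 was at 0 in all libraries and 2 were tested, of which 1 was called after SFN and 2 after DAC+SFN. Cd68, a lysosomal protein, rose from 3.34 ± 1.28 CPM in control to 7.21 ± 1.56 in SFN and 9.68 ± 1.45 in DAC+SFN cells, and the summed level of the 5 was 4.19 to 5.94 CPM in control, 7.62 to 13.8 in SFN and 10.8 to 16.4 in DAC+SFN cells. Of 5 fibroblast markers 3 were tested, with 1 called after SFN and 1 after DAC+SFN, and their sum of 19.6 to 366 CPM followed the replicate number, as Col1a1 stood at 72.1, 15.6 and 312 CPM in control replicates 1, 2 and 3. Markers of keratinocytes, endothelial cells and T cells were below the filter, with sums of at most 0.766 CPM. The part of these markers in the changes of the 10 genes was not tested.

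Likeness of pattern was measured, for the 3 of the 10 genes with the largest changes after DAC+SFN, as the root mean square difference of the 12 log2 CPM values after subtraction of each gene's mean in its replicate number. For Mlph the nearest genes were Tacc2 (0.041) and Extl3 (0.042), where the pattern of Mlph itself had a root mean square of 0.196. For Rab27a they were Mgat4a (0.030) and Pdia4 (0.037), beside 0.145 for Rab27a, and for Rab32 they were Rbm8a (0.028) and Psmc3 (0.032), beside 0.130. The 12 libraries share their controls and replicate numbers, and no test was made of these likenesses.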

How the data were processed

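RNA-seq counts of 12 B16F10 libraries, 3 in each of 4 groups, were used. Per the labels and the methods of the study, polyA RNA was prepared with a stranded kit, reads were checked with FastQC 0.11.7, trimmed with Trimmomatic 0.38, aligned to mm10 with TopHat2 2.1.1 and counted with HTSeq, and reads with more than 1 alignment were discarded. The version of HTSeq, the gene annotation and the strand setting are not given in the sources used here. The authors deposited whole counts per gene symbol, without normalization or filter, with totals of 15880957 to 27291436 per library. Genes were matched by symbol, because 397 Entrez identifiers carried several symbols.

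Samples were grouped by their labels. Counts were scaled by trimmed mean of M values (TMM), filtered at 1 CPM in at least 3 libraries and tested with edgeR 4.0.16 (glmQLFit and glmQLFTest, R 4.3.3) with group and replicate number as terms, leaving 6 residual degrees of freedom, and Benjamini-Hochberg adjustment over 11638 genes. A call is an adjusted p under 0.05, and the study's further limit of a 2-fold change is given beside it. The study names a batch correction without naming the batch, and the replicate number was used for it. Libraries of the same number deviated together from their group means in each of 18 pairs (correlation 0.270 to 0.732), so the numbers pair the libraries. SEs are the absolute log2 fold change over the square root of F. Lengths for RPKM and gene positions are of GENCODE release M21 on mm10, and promoter windows of RefSeq on GRCm38.p6. The SD covers the whole spread between the libraries of a group, differences between replicate numbers included. The p-values of the main test rest on the spread left after the replicate block. Depth limits the lowest gene, Hps4, to 508 to 896 counts per library.

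Alternatives were no block, DESeq2 size factors, no filter, at least 10 counts in every library, DESeq2 1.42.0, a fit of only the groups compared, and each library left out in turn. Leaving out each replicate number in all 4 groups was added after seeing the data. The genes, lists and tests were chosen with earlier results of these data known. Named genes are the 10 genes, the genes of each list called with more than 2-fold change, the 2 with the largest change among those called in each list and comparison with control, the markers, Mitf, Sox10, Tyr and Pmel, and the nearest patterns of the 3 genes with the largest change after DAC+SFN. Hps1 and Myef2 were named for their relation to Hps4 and Slc24a5.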

Additional observations from a re-analysis of the deposited data

How the results depend on the processing

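Of 1250 recomputed values, 1095 kept their direction and side of the threshold, 75 lost a call, 28 gained one and 52 changed sign, none of them a called value. DESeq2 size factors and the filter of 10 counts moved no call. Without the replicate block, which the pairing check calls for, the calls among the 10 genes fell to 0 after SFN and 1 after DAC+SFN and to 0 between DAC+SFN and DAC, and over all genes from 1619 to 23, from 3683 to 1201 and from 1879 to 20, and Gpr143 after DAC+SFN was at -0.002. No filter gave 7 calls after SFN (Gpnmb gained) and 8 after DAC+SFN (Trpm1 gained, adjusted p = 0.00397), beside 10.5% and 21.9% of all 17403 genes. It gave 7 between DAC+SFN and DAC (Gpnmb and Rab38 gained) and 1 between DAC+SFN and SFN (Myo5a), beside 12% and 2.79%, and Gpr143 at -0.014. DESeq2 gave 6, 7, 6 (Gpnmb gained) and 1 (Myo5a) in these comparisons, beside 13.9%, 29.5%, 15.5% and 3.47%. Fits of only the compared groups gave 3 calls after DAC, 3 between DAC+SFN and DAC and 2 between DAC+SFN and SFN, with Gpr143 at -0.001, and after DAC+SFN Gpnmb lost its call and Trpm1 gained one. Over all genes, calls after DAC went from 21 to 169 without a filter, 83 with DESeq2 and 663 in fits of only the compared groups, and those between DAC+SFN and SFN from 187 to 486, 404 and 1267, and those between DAC+SFN and DAC to 748 in the last. The cause was not tested.

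With 1 library left out, calls ranged from 1 to 6 after SFN (1 without SFN replicate 2) and from 2 to 7 between DAC+SFN and DAC (2 without DAC replicate 2 or DAC+SFN replicate 1). Over all genes the calls then ranged from 726 to 2105 after SFN, 2333 to 4199 after DAC+SFN, 769 to 2377 between DAC+SFN and DAC, 0 to 703 between DAC+SFN and SFN and 0 to 101 after DAC. Among log2 fold changes that changed sign, the range after DAC was -0.138 to 0.012 for Rab38, -0.052 to 0.068 for Mlph, -0.087 to 0.010 for Myo5a and -0.028 to 0.064 for Gpr143. After SFN it was -0.009 to 0.043 for Hps4, and after DAC+SFN -0.111 to 0.093 for Gpr143. Between DAC+SFN and DAC it was -0.127 to 0.081 for Gpr143 and -0.112 to 0.040 for Hps4, and between DAC+SFN and SFN -0.069 to 0.027 for Rab38 and -0.045 to 0.172 for Mlph. The interaction ranged from -0.044 to 0.043 for Rab32, -0.034 to 0.118 for Rab38, -0.063 to 0.153 for Mlph, -0.058 to 0.271 for Trpm1, -0.051 to 0.081 for Gpnmb and -0.127 to 0.025 for Hps4.

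Leaving out a replicate number in all groups was chosen after seeing the data and left 2 libraries a group. Without replicate 1, calls were 1 after SFN, 4 after DAC+SFN, 0 between DAC+SFN and DAC and 4 between replicate numbers, beside 5.4%, 12.7%, 2.12% and 23.8% of all genes, and Hps4 after SFN was at -0.009, Mlph between DAC+SFN and SFN at -0.014, and the interaction of Mlph at -0.016 and of Gpnmb at -0.039. Without replicate 2, calls were 1 after SFN, 3 between DAC+SFN and DAC and 6 between replicate numbers, beside 3.72%, 7.47% and 5.1%. Gpr143 was then at -0.045 after DAC, -0.116 after DAC+SFN and -0.020 between DAC+SFN and SFN, Hps4 at -0.010 after SFN, and the interaction at -0.006 for Rab38, -0.026 for Slc24a5, -0.011 for Trpm1 and 0.001 for Hps4. Without replicate 3, the difference of DAC+SFN from DAC was 0.061 for Gpr143 and 0.064 for Hps4, and the interaction 0.062 for Rab32 and 0.015 for Hps4.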
